A study of Bos taurus with 6 samples.

Results

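Primitive endoderm genes and the basement membrane chains that this lineage secretes were followed in single bovine morulae treated with an inhibitor of MAT2A. The set was chosen by symbol and held 10 genes: the receptor PDGFRA, the ligand RSPO3, the transcription factors GATA4, SOX17 and HNF4A, the laminin chains LAMA1, LAMB1 and LAMC1, and the type IV collagen chains COL4A1 and COL4A2. Of these 10, 8 were measured in every embryo, out of 13185 gene symbols kept, and LAMA1 and COL4A2 were not analysed here. Embryos were made by in vitro fertilization and cultured in mSOF with bovine serum albumin under 5% oxygen to day 6. The MAT2A-inhibited group held 3 morulae given 20 µM FIDAS-5 from 72 h after insemination, at the 8-16 cell stage, to 144 h, and the Control group held 3 morulae given 0.1% DMSO over the same hours. FIDAS-5 is a small molecule that inhibits MAT2A, and DMSO is a solvent given to the controls as vehicle. MAT2A converts methionine to S-adenosylmethionine, the methyl donor of most methylation reactions. The labels give no breed, sex or parentage, and do not state whether embryos of 1 group were cultured apart. A p-value here therefore covers the spread among these 6 embryos, part of which may be technical.

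The primitive endoderm, called hypoblast in cattle, is the second lineage to form inside the embryo. It separates from the epiblast in the blastocyst under fibroblast growth factor signalling and later lines the yolk sac. Its cells depend on GATA factors and SOX17, carry the receptor PDGFRA, and lay down a sheet of laminin and type IV collagen on which the epiblast rests. A laminin is a trimer of an alpha, a beta and a gamma chain, and the main type IV collagen joins COL4A1 with COL4A2, so one chain without its partners does not give the finished protein. Morulae precede this lineage, and in mouse embryos laminin chains are already made in cleavage stages.

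Levels are given in FPKM, fragments scaled to transcript length and library depth, as deposited, with 1 library per embryo. Library depth, read off the smallest steps between the authors' bounds for short loci, was 46400000 to 59900000 fragments per library. Each difference below subtracts the Control mean of log2(FPKM + 1) from the MAT2A-inhibited one, and low genes change less on this scale than in FPKM. It was tested with limma over the 7319 genes that reached 1 FPKM in 3 or more libraries, with Benjamini-Hochberg adjustment. An adjusted p below 0.05 was reached by 3 genes, or 0.041% of those tested (0.0273% higher and 0.0137% lower in MAT2A-inhibited morulae), and none of the 5 measured members that met the filter was among them. These were PDGFRA, RSPO3, LAMB1, LAMC1 and COL4A1. An unadjusted p below 0.05 was found for 1 of the 5, LAMB1, and for 6.64% of all tested genes. GATA4, SOX17 and HNF4A were under the filter and are given as values. For single genes an exact two-sided permutation test was used, whose smallest p with 3 against 3 embryos is 0.1. In a whole embryo, fewer cells of a type and less RNA per cell cannot be told apart.

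The values of both groups did not overlap for 4 of the 8 measured genes. RSPO3, GATA4 and SOX17 were higher and PDGFRA was lower in MAT2A-inhibited morulae. Of the 5 tested members 2 did not overlap, PDGFRA and RSPO3, against 13.4% of all tested genes (8.27% higher and 5.18% lower in MAT2A-inhibited morulae). Of the 3 under the filter 2 did not overlap, GATA4 and SOX17, against 9.8% of the 2234 genes under the filter that were above 0 in at least 3 libraries (5.42% higher and 4.39% lower). With so few members, chosen with earlier results of these data known, these shares are given as counts only.

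**Figure D1:**
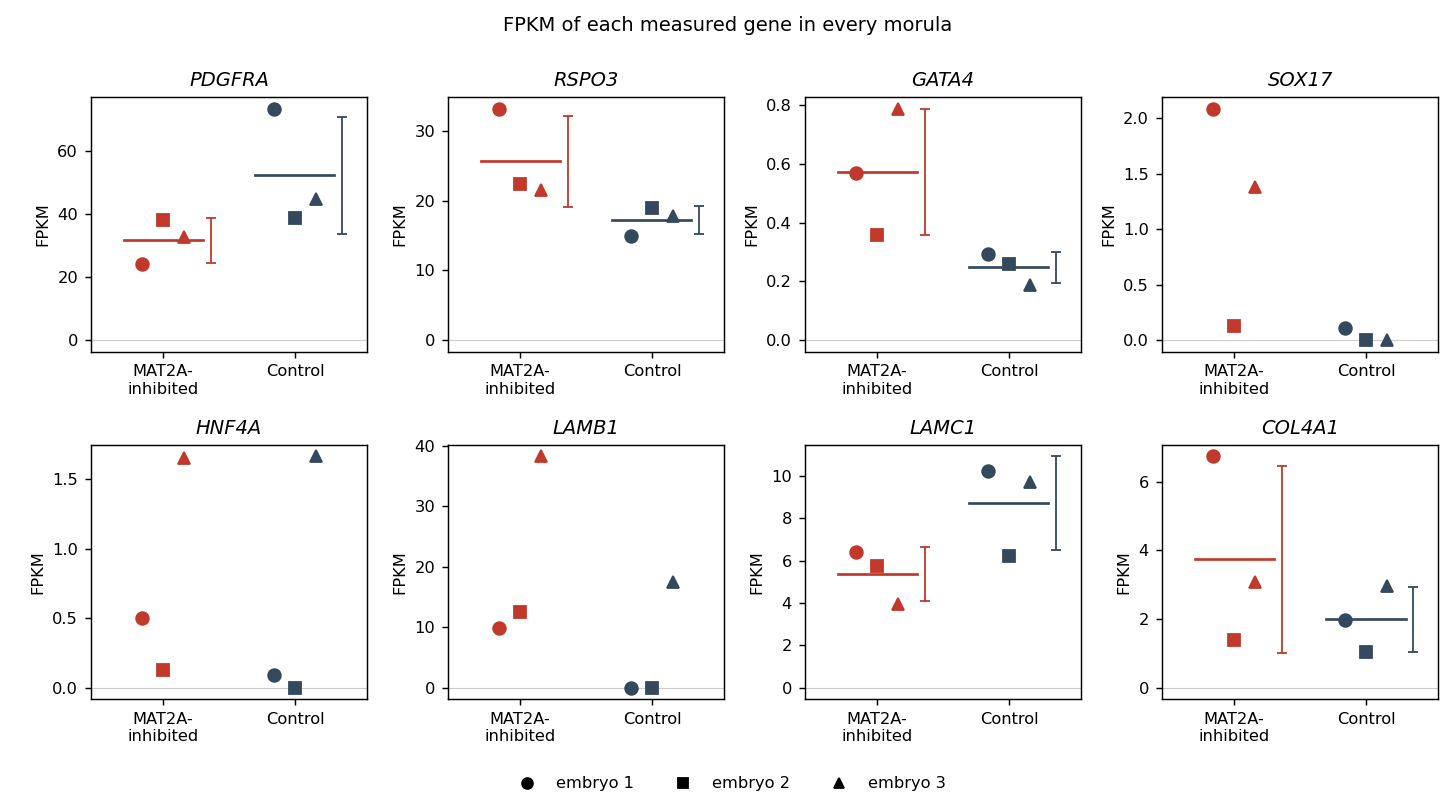
FPKM of the 8 measured genes in each of the 6 morulae, on a separate linear axis per gene. Points are single embryos, marked by replicate number; the horizontal line is the group mean and the bar beside it the SD (n = 3), both left out for SOX17, HNF4A and LAMB1, which have embryos listed at 0. RSPO3, GATA4 and SOX17 lie higher and PDGFRA lower in every MAT2A-inhibited morula, while the other 4 genes overlap between groups.

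PDGFRA, the receptor of platelet-derived growth factor A and an early surface marker of primitive endoderm, was the most abundant member. It lies on chromosome 6 of the bosTau8 build, from 71373513 to 71421519. Its level was 24.1, 38.2 and 32.7 FPKM in the MAT2A-inhibited embryos numbered 1 to 3, against 73.5, 38.8 and 44.8 FPKM in the Control embryos numbered alike. Every MAT2A-inhibited morula was below every control, but the closest pair, MAT2A-inhibited 2 and Control 2, nearly met. The means were 31.7 ± 7.10 FPKM in MAT2A-inhibited embryos and 52.4 ± 18.5 FPKM in controls (SD, n = 3 each, p = 0.1 in the exact permutation test). The log2 difference was -0.68 ± 0.31 (SE), with a 95% interval from -1.40 to 0.05 and a limma adjusted p of 0.750. Without Control 1, which held the highest level, it was -0.41.

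The genes around the receptor were also measured. PDGFA, its main ligand in the early embryo, was measured at 3.02, 7.21 and 2.08 FPKM in MAT2A-inhibited morulae and 3.61, 1.71 and 3.75 FPKM in controls. PDGFB, a second ligand, was at most 2.48 FPKM. The sister receptor PDGFRB did not exceed 0.00821 FPKM in any embryo and PDGFD was listed at 0 throughout. Of both receptors, PDGFRA was thus the one seen above 1 FPKM, and its level exceeded that of PDGFA in every embryo.

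RSPO3, a secreted R-spondin that amplifies WNT signals by keeping Frizzled receptors on the cell surface, was higher in every MAT2A-inhibited morula. It lies on chromosome 9, from 24364563 to 24508268. It was measured at 33.3, 22.4 and 21.5 FPKM in MAT2A-inhibited morulae, against 15.02, 19.0 and 17.9 FPKM in controls. The groups did not overlap, and the highest embryo, MAT2A-inhibited 1, was the one with the least PDGFRA. Means were 25.7 ± 6.53 FPKM in MAT2A-inhibited embryos and 17.3 ± 2.04 FPKM in controls (SD, n = 3 each, p = 0.1 in the exact permutation test). The log2 difference was 0.53 ± 0.27 (SE), with a 95% interval from -0.10 to 1.15 and a limma adjusted p of 0.760. Without MAT2A-inhibited 1 it was 0.33.

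Levels of the receptor and the R-spondin can be set against each other, since FPKM is per length. Per embryo, PDGFRA divided by RSPO3 gave 0.724, 1.70 and 1.52 with the inhibitor, against 4.89, 2.04 and 2.50 without it. PDGFRA exceeded RSPO3 in 5 of the 6 embryos, the exception being MAT2A-inhibited 1. This ratio was chosen after the values were seen and was not tested.

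R-spondin receptors were also measured. LGR4 was measured at 7.41, 6.99 and 7.63 FPKM in MAT2A-inhibited morulae and 3.75, 5.74 and 6.58 FPKM in controls, a log2 difference of 0.42 that did not pass limma (adjusted p = 0.802). LGR5 was at 3.75, 0.0254 and 1.82 FPKM with the inhibitor against 2.42, 3.49 and 1.46 in controls. LGR4 did not overlap between groups, as RSPO3 did not, whereas LGR5 did. RNF43, a ubiquitin ligase that R-spondins block, reached no more than 0.278 FPKM, and RSPO2 was at 2.08, 0.465 and 0.0983 FPKM in MAT2A-inhibited embryos against 0.602, 2.58 and 0 FPKM in controls.

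The 3 transcription factors were the least abundant of the measured members. GATA4, a zinc finger factor of the primitive endoderm and later of heart and gut, lies on chromosome 8, from 7478854 to 7531189. Levels were 0.568, 0.359 and 0.788 FPKM in MAT2A-inhibited morulae and 0.292, 0.260 and 0.189 FPKM in controls. All 3 treated values were above all 3 controls, with means of 0.572 ± 0.214 FPKM in MAT2A-inhibited embryos and 0.247 ± 0.0527 FPKM in controls (SD, n = 3 each, exact permutation p = 0.1), a ratio of 2.31. The closest pair was MAT2A-inhibited 2 and Control 1. Their authors' bounds, 0.253 to 0.463 and 0.205 to 0.380 FPKM, overlapped. The level stayed under 1 FPKM in every embryo.

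SOX17, an HMG-box factor of endoderm, lies on chromosome 14, from 23884842 to 23887577. It was measured at 2.08, 0.126 and 1.38 FPKM in MAT2A-inhibited morulae, against 0.106, 0 and 0 FPKM in controls (exact permutation p = 0.1). MAT2A-inhibited morulae 1 and 3 stood apart, and MAT2A-inhibited 2 was near Control 1, so the lack of overlap rests on a narrow gap at its lower end. In the embryos at 2.08 and 1.38 FPKM the assembled SOX17 locus spanned 2736 and 2713 bases. In the other 4 it kept the annotated span of 1801 bases.

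HNF4A, a nuclear receptor of visceral endoderm and liver, lies on chromosome 13, from 73547631 to 73577200. Levels were 0.500, 0.127 and 1.65 FPKM in MAT2A-inhibited morulae and 0.0882, 0 and 1.66 FPKM in controls (exact permutation p = 0.6). The groups overlapped: MAT2A-inhibited 3 and Control 3 were nearly equal and stood well above the other 4 embryos. Without MAT2A-inhibited 3 its log2 difference of 0.21 turned to -0.13, and without Control 2 to -0.05.

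The order of abundance among the 8 genes put PDGFRA and RSPO3 at the top. The mean over all 6 embryos placed PDGFRA above 84.8% of the 13185 kept genes, RSPO3 above 78.2%, LAMB1 above 72.4%, LAMC1 above 65.0% and COL4A1 above 53.9%. HNF4A, SOX17 and GATA4 were above 40.6%, 39.8% and 37.0%, and their ranges overlapped, so no order among these 3 is given. LAMB1 ranged from 0 to 38.2 FPKM and so spanned the levels of every other member except the upper PDGFRA values.

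LAMB1, the beta chain of the laminins of early embryos, lies on chromosome 4, from 49263405 to 49340000. It was measured at 9.84, 12.6 and 38.2 FPKM in MAT2A-inhibited morulae, and at 0, 0 and 17.5 FPKM in controls (p = 0.3 in the exact permutation test). All 3 MAT2A-inhibited morulae were above the 2 controls listed at 0, and Control 3 lay inside the range of the MAT2A-inhibited group. The log2 difference was 2.76 ± 1.13 (SE), with a 95% interval from 0.14 to 5.39, an unadjusted p of 0.0416 and a limma adjusted p of 0.746. The size rests on the 2 zeros and on the constant added: with a pseudocount of 0.1 it was 4.91. Without Control 3 it was 4.16, with a limma adjusted p of 0.142, and without Control 1 or Control 2 it was 2.06.

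A listed 0 in these tables can be a failed estimate, so the LAMB1 locus was looked at more closely. The authors' upper bound for LAMB1 was 0.117 FPKM in Control 1 and 0.270 FPKM in Control 2, although the value itself was 0. Such a bound above 0 was found for 5.46% to 7.01% of the annotated rows at 0 per library. The 38.2 FPKM of MAT2A-inhibited 3 lay above its own bounds of 33.8 to 37.0 FPKM. In all, 8.28% to 10.6% of annotated values per library lay outside their bounds. The locus was assembled over the same 76596 bases in all 6 embryos, and unannotated loci lay inside it in 5 of them. There were 7, 0 and 2 in MAT2A-inhibited morulae 1 to 3, the highest at 33.4 FPKM in MAT2A-inhibited 1 and 1.23 FPKM in MAT2A-inhibited 3. In controls 1 to 3 there were 3, 6 and 1, the highest at 0.852, 19.2 and 2.70 FPKM, so Control 2 held signal inside the locus while LAMB1 was listed at 0. LAMB1 was 1 of 23 tested genes at 0 in exactly 2 libraries and at 5 FPKM or more in the other 4. Of these 23, 7 had their zeros in Control 1 and Control 2, the highest number among the 15 pairs of libraries, where the others held 0 to 3. Whether both zeros of LAMB1 are true absence was not tested.

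LAMC1, the gamma chain that nearly all embryonic laminins share, lies on chromosome 16, from 65545497 to 65665391. It was measured at 6.41, 5.72 and 3.92 FPKM in MAT2A-inhibited morulae and 10.3, 6.19 and 9.73 FPKM in controls. The groups overlapped through Control 2, which was below MAT2A-inhibited 1. Means were 5.35 ± 1.29 FPKM in MAT2A-inhibited embryos and 8.72 ± 2.21 FPKM in controls (SD, n = 3 each, p = 0.2 in the exact permutation test). The log2 difference was -0.61 ± 0.32 (SE), with a 95% interval from -1.35 to 0.14 and a limma adjusted p of 0.772. Under median-of-ratios scaling all MAT2A-inhibited values were below all controls.

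The beta and gamma chains thus differed in pattern between embryos. LAMB1 divided by LAMC1 gave 1.53, 2.19 and 9.74 with the inhibitor and 1.80 in Control 3, and LAMB1 was listed at 0 in the other controls. MAT2A-inhibited 3 had both the most LAMB1 and the least LAMC1 of all 6 embryos. Of the other laminin chains on the list, 3 had values and none met the filter: LAMA4, an alpha chain of vessels, reached 1.94 FPKM in MAT2A-inhibited 3 and at most 0.0528 FPKM elsewhere, LAMB2 was at most 0.0242 FPKM and LAMB3 was listed at 0. LAMB1 and LAMC1 were therefore the laminin chains seen above 2 FPKM in these tables.

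COL4A1, the alpha-1 chain of type IV collagen, lies on chromosome 12, from 88875874 to 89009422. Levels were 6.75, 1.40 and 3.07 FPKM in MAT2A-inhibited morulae and 1.98, 1.04 and 2.95 FPKM in controls. The groups overlapped, and the highest embryo was MAT2A-inhibited 1. Means were 3.74 ± 2.74 FPKM in MAT2A-inhibited embryos and 1.99 ± 0.957 FPKM in controls (SD, n = 3 each, p = 0.4 in the exact permutation test). The log2 difference was 0.55 ± 0.49 (SE), with a 95% interval from -0.59 to 1.69 and a limma adjusted p of 0.829, and without MAT2A-inhibited 1 it was 0.11, without Control 2 it was 0.30, and without MAT2A-inhibited 2 it was 0.96. Another chain, COL4A3, was measured at 0.433, 1.12 and 0 FPKM in MAT2A-inhibited morulae and listed at 0 in every control.

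In the RefSeq gene table for the ARS-UCD2.0 assembly COL4A2 lies between COL4A1 and RAB20. In the bosTau8 positions of these tables the stretch between COL4A1 and RAB20 held no annotated row, but it held 8, 5 and 10 unannotated assembled loci in MAT2A-inhibited morulae 1 to 3 and 7, 10 and 9 in controls 1 to 3. In MAT2A-inhibited 3, 1 of them began 268 bases past COL4A1 and ran for 103487 bases, from 89009691 to 89113177, at 2.73 FPKM. In Control 2, 1 began 250 bases past COL4A1 and ran for 19957 bases at 0.724 FPKM. The longest in the other embryos were 48234 and 2836 bases in MAT2A-inhibited 1 and 2, and 51612 and 15761 bases in Control 1 and 3. These loci carry no symbol and were not assigned to a gene. LAMA1 lies between TMEM200C and LRRC30 in the same RefSeq table, but so do L3MBTL4 and ARHGAP28. In that stretch the longest unannotated locus spanned 5532, 17622 and 7777 bases in MAT2A-inhibited morulae and 43216, 55718 and 55530 bases in controls. With the inhibitor these began 601509, 606880 and 687502 bases past TMEM200C. In controls they began 526558, 525931 and 526388 bases past it, so the lengths are of different loci. Which gene they belong to cannot be told from these data.

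**Figure D2:**
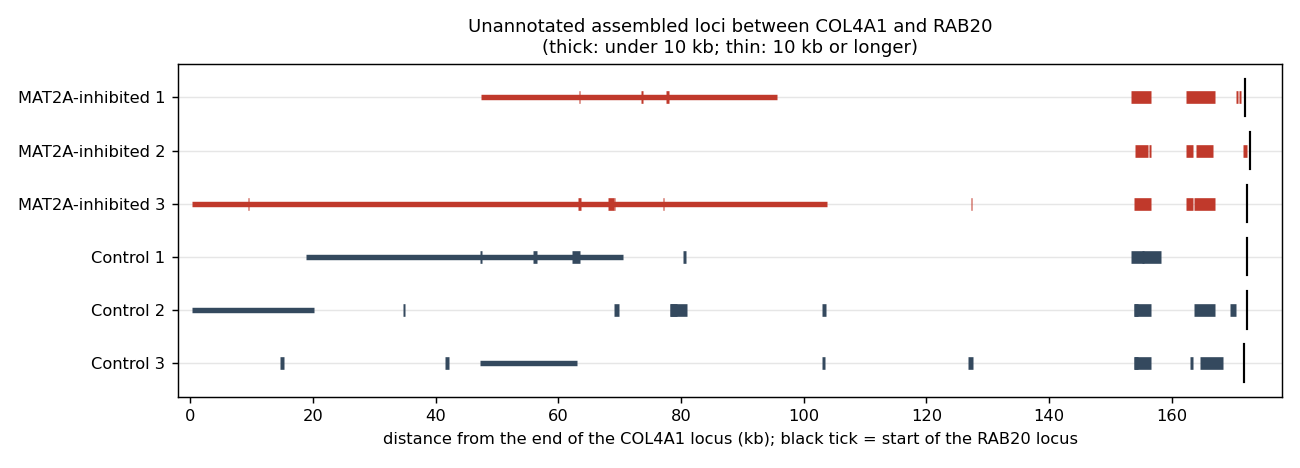
Unannotated loci assembled between COL4A1 and RAB20 in each morula, by distance in kb from the end of the COL4A1 locus, with a black tick at the start of RAB20. Thick bars are loci under 10 kb and thin bars longer ones; a locus of 103487 bases starts beside COL4A1 in MAT2A-inhibited 3 and shorter pieces appear in the other embryos.

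Few of the listed linkers of the basement membrane had values that met the filter. SPARC, a collagen-binding glycoprotein abundant in parietal endoderm, was measured at 124.1, 154.2 and 181.2 FPKM in MAT2A-inhibited morulae and 84.3, 113.3 and 115.8 FPKM in controls. Its groups did not overlap, and the log2 difference of 0.55 did not pass limma (adjusted p = 0.746). NID2, a nidogen that joins laminin to type IV collagen and a hypoblast marker in cattle, was at 0, 39.2 and 4.11 FPKM with the inhibitor against 0, 0 and 61.1 in controls. NID2 showed no order by treatment. NID1 was at most 2.72 FPKM, in MAT2A-inhibited 3. Of the 13 genes on this list 8 had values, 2 were tested and 0 passed.

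Genes that fold, modify and export collagen were measured more broadly, with 11 of 20 tested, 0 passed and a median log2 difference of 0.21, against 0.04 over all tested genes. P4HB, the disulfide isomerase that is also the beta subunit of prolyl 4-hydroxylase, was measured at 93.1, 102.9 and 141.9 FPKM in MAT2A-inhibited morulae and 70.0, 56.3 and 66.6 FPKM in controls (log2 difference 0.78, limma adjusted p = 0.701). PPIB, a prolyl isomerase of the endoplasmic reticulum, was at 159.7, 192.2 and 347.4 FPKM with the inhibitor against 156.8, 118.5 and 206.1 in controls. CTAGE5, CRTAP and KLHL12, which act in collagen export or hydroxylation, had log2 differences of 0.47, 0.75 and -0.26. P4HA1, the catalytic alpha subunit that pairs with P4HB, was at 9.13, 6.84 and 10.4 FPKM with the inhibitor against 19.9, 26.7 and 12.5 in controls, and the collagen chaperone SERPINH1 at 2.36, 1.65 and 2.77 FPKM with the inhibitor against 0.826, 0.636 and 1.11 in controls. P4HA1 was lower and SERPINH1 and P4HB were higher in every MAT2A-inhibited morula. P4HA2, another alpha subunit, overlapped between groups at 2.28, 3.26 and 5.86 FPKM in MAT2A-inhibited morulae and 3.50, 1.63 and 4.26 FPKM in controls. P4HA1, P4HA2 and SERPINH1 were chosen after their values were seen, and none passed limma (adjusted p = 0.701 for P4HA1 and 0.746 for SERPINH1).

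Of 21 receptors and adaptors for matrix 10 were tested and 0 passed, with a median log2 difference of 0.26. ITGB1, the integrin beta chain of most laminin and collagen receptors, was measured at 49.6, 45.9 and 29.7 FPKM in MAT2A-inhibited morulae and 31.9, 55.3 and 50.5 FPKM in controls. The talin-binding protein VCL was at 13.8, 47.7 and 30.1 FPKM with the inhibitor against 18.5, 22.2 and 19.0 in controls, and the syndecan SDC2 at 7.14, 6.44 and 10.6 FPKM with the inhibitor against 26.9, 14.2 and 6.32 in controls. None of these separated the groups. DAG1, the core of the dystroglycan laminin receptor, reached 0.764 FPKM and ITGB4 0.00693 FPKM at most.

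Matrix proteases and their inhibitors included 6 tested genes of 14, of which 0 passed. TIMP1, an inhibitor of matrix metalloproteinases, was measured at 142.1, 65.9 and 90.6 FPKM in MAT2A-inhibited morulae and 166.2, 208.0 and 249.2 FPKM in controls. Every MAT2A-inhibited embryo was below every control, with a log2 difference of -1.11 and a limma adjusted p of 0.688. TIMP2, named after its values were seen, was likewise lower without overlap, at 17.0, 7.70 and 8.45 FPKM with the inhibitor against 26.2, 22.5 and 17.0 in controls, the closest pair being 16.97 in MAT2A-inhibited 1 and 17.04 in Control 3 (limma adjusted p = 0.732). The cathepsins CTSL and CTSB had log2 differences of -0.18 and -0.04.

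Signals that induce primitive endoderm in the blastocyst were tested for 8 of 18 listed genes, and 0 passed. FGF4, the ligand that epiblast cells send, was measured at 0.934, 0.493 and 3.74 FPKM in MAT2A-inhibited morulae and 1.42, 0 and 0.235 FPKM in controls. GRB2, the adaptor between receptor and RAS, was at 52.1, 39.7 and 47.6 FPKM with the inhibitor against 39.5, 51.8 and 33.4 in controls, and the feedback inhibitor SPRY2 at 30.2, 46.3 and 31.4 FPKM with the inhibitor against 34.0, 25.1 and 24.7 in controls. The kinase MAP2K2 was at 14.9, 10.1 and 68.6 FPKM with the inhibitor against 13.8, 10.7 and 54.3 in controls, high in the third embryo of each group. FGFR4, a receptor chosen after its values were seen, was measured at 33.6, 13.2 and 9.05 FPKM in MAT2A-inhibited morulae and 8.92, 5.70 and 5.82 FPKM in controls. Its log2 difference was 1.15, with a limma adjusted p of 0.746. The receptors FGFR1 and FGFR2, also tested, overlapped between groups, with log2 differences of -0.31 and 0.21.

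Other regulators and products of this lineage gave 0 passing genes among 5 tested of 11 and 5 tested of 16. KLF4, SALL4 and DAB2 were the most abundant on the list of regulators, with log2 differences of 0.40, 0.01 and -0.42. Which cells of the embryo held them was not tested. GATA6, the earliest factor of the lineage, was not analysed here. Of the defining markers that were, PDGFRA was above 1 FPKM in all 6 embryos, SOX17 in 2 and GATA4 in 0. Fibronectin, FN1, which primitive endoderm and trophectoderm both secrete, was the most abundant product at 1489.1, 983.5 and 3412.2 FPKM in MAT2A-inhibited morulae and 701.8, 240.2 and 1893.5 FPKM in controls (log2 difference 1.32, limma adjusted p = 0.779). FN1 was highest in the third embryo of each group, as LAMB1 and HNF4A were. Among other yolk sac and liver products, the apolipoprotein APOA1 measured 0.136, 1.81 and 3.44 FPKM in MAT2A-inhibited morulae and 3.26, 0.312 and 27.1 FPKM in controls, and it overlapped with a log2 difference of -1.16. APOE, under the filter, was at 0, 0.0457 and 0.207 FPKM with the inhibitor against 0.268, 0.370 and 2.47 in controls. It was lower in every MAT2A-inhibited morula. Transferrin, TF, was at most 4.62 FPKM and AFP at most 0.266 FPKM, while TTR and ALB were listed at 0 in every embryo. These 6 products were chosen after their values were seen.

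**Figure D3:**
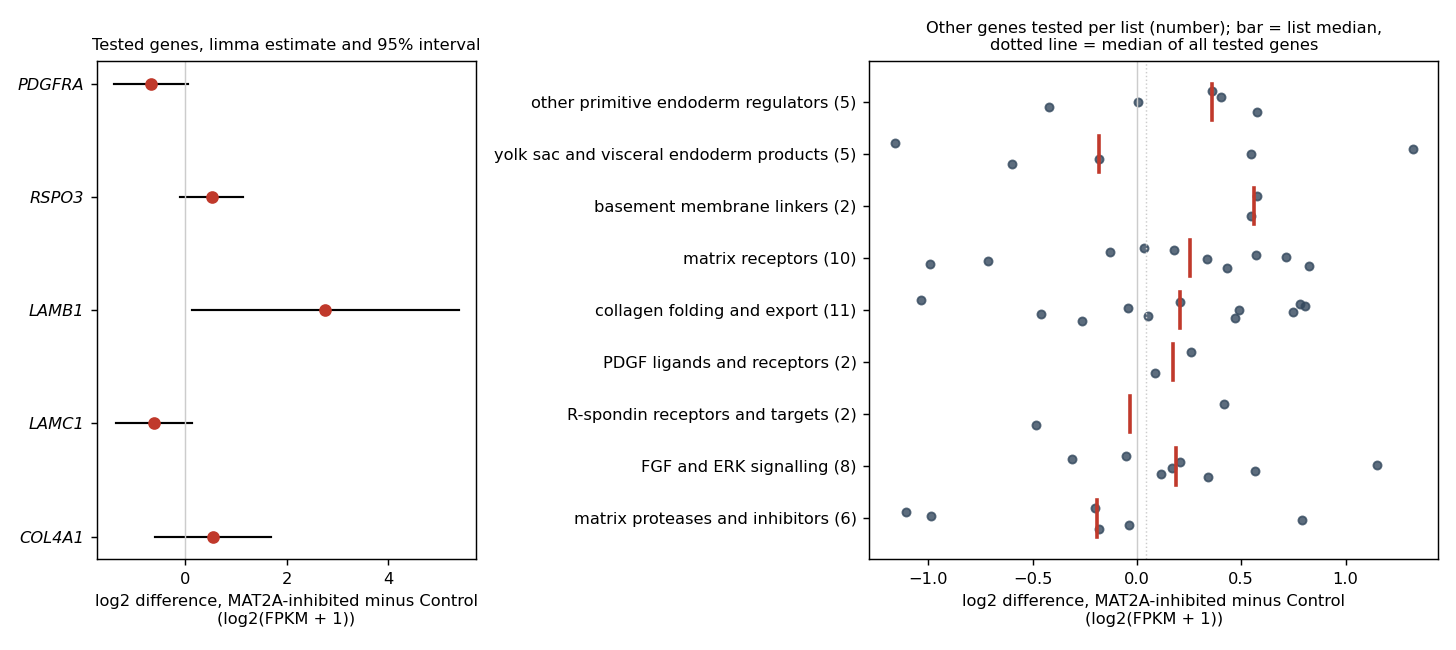
Left, log2 difference (MAT2A-inhibited minus Control, log2(FPKM + 1)) of the 5 tested members with 95% limma intervals; right, the same differences for the tested genes of the other lists, one point per gene, with the list median as a bar. The intervals of PDGFRA, RSPO3, LAMC1 and COL4A1 include 0, that of LAMB1 runs from 0.14 to 5.39, and list medians lie on both sides of the median of all tested genes at 0.04.

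Over the 11 other lists, 48 of 135 different genes were tested, 0 passed and 7 had an unadjusted limma p below 0.05. Among all tested genes that held for 486 of 7319, or 6.64%. The 48 genes had a median log2 difference of 0.17, and the 5 tested members one of 0.53. Over all tested genes the median was 0.04 and the median SE 0.34. The 0.53 is the value of RSPO3, and the members were split. PDGFRA and LAMC1 were at -0.68 and -0.61, and COL4A1 and LAMB1 at 0.55 and 2.76. The 3 genes whose levels ran most like PDGFRA over the 6 embryos were REST, a transcriptional repressor, MELK, a mitotic kinase, and GM2A, a lysosomal activator protein, with Pearson coefficients of 0.977, 0.976 and 0.961 on the log2 scale, as a description of 6 points. A coefficient above 0.9 was found for 25 of 7318 genes.

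Markers of other cells were checked, since stromal and cumulus cells also make PDGFRA, laminin and collagen. The summed level of 12 cumulus, granulosa and stromal markers was 3.51 to 5.95 FPKM in MAT2A-inhibited morulae and 6.92 to 22.7 FPKM in controls, without overlap and in the same direction as PDGFRA, LAMC1, TIMP1, TIMP2 and P4HA1, and its part in those values was not tested. In Control 2, where it was 22.7, DCN was at 11.0 FPKM and LUM at 4.81 FPKM. COL1A2, on the same list, was instead lowest in Control 2, at 0.231 FPKM, against 4.29 and 4.06 FPKM in Control 1 and 3. With the inhibitor COL1A2 was at 1.06, 0.630 and 0.529 FPKM. Control 2 had the least PDGFRA and LAMC1 but the most P4HA1 of the controls. COL3A1 and TAGLN were listed at 0 in every embryo and VIM was at most 0.501 FPKM. Without Control 2 the log2 differences of PDGFRA and LAMC1 were -0.86 and -0.81. Of the 12 markers, 7 reached 1 FPKM in some embryo. The single markers did not all follow the sum. The 3 tested ones, STAR, ACTA2 and COL1A2, had log2 differences of 0.14, -0.41 and -0.89, and each overlapped between groups. FSHR, under the filter, was at 2.37 FPKM in MAT2A-inhibited 3 and listed at 0 in every other embryo. COL1A1, also under the filter, was lower in every MAT2A-inhibited morula. The sum of 3 sperm markers was 5.13 to 11.5 FPKM in MAT2A-inhibited morulae and 2.53 to 4.79 FPKM in controls. This was in the direction of RSPO3, GATA4 and SOX17, and its part was not tested. All 3 sperm markers had log2 differences above 0, but each of them overlapped between groups. The sum of 2 blood markers was 81.9 to 109.8 FPKM in MAT2A-inhibited morulae and 63.1 to 132.4 FPKM in controls. Nearly all of it was HBA, since HBB was at most 1.72 FPKM and was listed at 0 in every control.

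Epiblast and trophectoderm markers give the state of the embryos. The epiblast sum of POU5F1, NANOG and SOX2 was 306.7 to 423.5 FPKM in MAT2A-inhibited morulae and 358.4 to 478.9 FPKM in controls. SOX2 was at 50.8, 50.3 and 45.2 FPKM with the inhibitor against 41.5, 27.6 and 32.1 in controls, NANOG at 1.16, 1.71 and 1.88 FPKM with the inhibitor against 4.58, 20.3 and 2.54 in controls, and POU5F1 overlapped. The trophectoderm sum of 7 genes was 175.6, 328.8 and 502.9 FPKM in MAT2A-inhibited morulae and 212.0, 115.2 and 962.6 FPKM in controls. It was highest in MAT2A-inhibited 3 and Control 3, which were also the highest embryos for LAMB1, HNF4A and FN1. GATA3, itself part of this sum, was at 33.9 FPKM in MAT2A-inhibited 3 and 83.4 FPKM in Control 3. CDX2 was at most 2.77 FPKM. The part of this spread between embryos in the LAMB1 and HNF4A values was not tested.

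**Figure D4:**
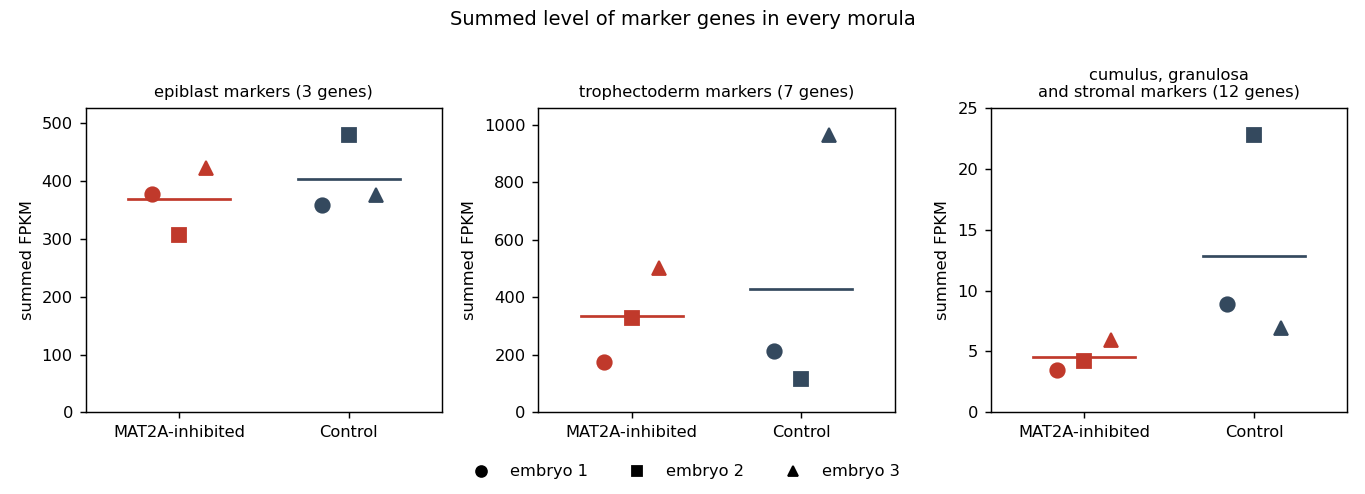
Summed FPKM of epiblast, trophectoderm and cumulus, granulosa and stromal markers in each morula, with points marked by replicate number and the group mean as a line. Stromal sums are 3.51 to 5.95 in MAT2A-inhibited morulae and 6.92 to 22.7 in controls, while trophectoderm sums are highest in the third embryo of each group.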

How the data were processed

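Polyadenylated RNA of 6 single morulae was amplified and sequenced, 1 library per embryo. The authors deposited 1 FPKM table per library, made with TopHat2 2.0.14 and Cufflinks 2.2.1 on bosTau8, per the submitters' processing notes; loci without a symbol come from assembly. Depth is not given in the sources used here and was read from the steps of the authors' bounds, of which 99.8% to 99.9% came out whole within 0.05 of a fragment.

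Of 13295 symbols in all 6 tables, 110 were left out because their locus merged several genes (38) or their status was not OK (72). FPKM + 1 was log2-transformed and tested with limma 3.58.1 in R 4.3.3, with a mean-variance trend, and checked on simulated data. FPKM carries no counts, so no count model was run. The text names all members, the tested genes of each other list with the highest mean (3 per list, 5 where over 10 were tested), lineage markers, and the 3 genes most like the most abundant member. Every other gene named, among them the low or absent genes of the lists such as RSPO2, RNF43, FGF4, NID1, COL4A3, LAMA4, DAG1, ITGB4 and PDGFRB, was chosen after its values were seen. Members and lists were chosen with earlier results of these data known. Alternatives were the pseudocount, filters, scaling, trend, replicate block, row choice and each library left out.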

Additional observations from a re-analysis of the deposited data

How the results depend on the processing

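No member passed limma under any of the 14 alternatives. The number of genes passing was 3; it was 1 without a filter on low values, 1 with a mean of at least 5 FPKM and 1 with a replicate block, and 0 to 8 when a library was left out (0 without any MAT2A-inhibited embryo, 8 without Control 3). Members whose groups did not overlap numbered 4, and 4 to 6 across alternatives: LAMC1 joined under median-of-ratios scaling and without MAT2A-inhibited 1 or Control 2, COL4A1 without MAT2A-inhibited 2, and LAMB1 and HNF4A without Control 3. With a library left out, 20.6% to 27% of all tested genes did not overlap. Of 102 alternatives for single members 2 reversed the sign, both for HNF4A, whose log2 difference ran from -0.13 without MAT2A-inhibited 3, through -0.05 without Control 2, to 0.66 without Control 3; the cause was not tested. With a pseudocount of 0.1 it was 0.95, and those of GATA4 and SOX17 were 0.91 and 2.82. With the replicate block LAMB1 had an unadjusted p of 0.00389 and a limma adjusted p of 0.592. Same-numbered embryos had deviations from group means correlated at 0.05, 0.10 and 0.19. MAT2A-inhibited 2 and 3 correlated best with the control of their own number and MAT2A-inhibited 1 with Control 2. Deviations from a mean of 3 embryos constrain each other, so these correlations cannot decide whether the numbers are pairs. The main fit used no block because the labels give replicate numbers and no shared culture. COL4A1 was under the filter at a mean of 5 FPKM. With 3 embryos per group and zeros in LAMB1, SOX17 and HNF4A, small differences of low genes could not be resolved.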
